A study of Mus musculus with 28 samples.

Results

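The genes described here encode the classical axon guidance ligands and receptors: ephrins and their Eph receptors, semaphorins and their neuropilin and plexin receptors, netrins and Unc5 receptors, and Slits and Robo receptors. Members were chosen by gene symbol from these 11 families and by a mean of at least 3 CPM (counts set to an equal library total, as deposited) in at least 1 of the 7 groups of the study. Of 30386 genes in the deposited table, 67 carried such a symbol and 49 reached the threshold. The 49 are 4 ephrin-A genes (Efna2, Efna3, Efna4, Efna5), 3 ephrin-B genes (Efnb1, Efnb2, Efnb3), 4 EphA receptors (Epha1, Epha2, Epha4, Epha7), 5 EphB receptors (Ephb1, Ephb2, Ephb3, Ephb4, Ephb6), 16 semaphorins, 2 neuropilins, 7 plexins, 2 netrins, 2 Unc5 receptors, 2 Slits and 2 Robo receptors. Just inside the threshold were Sema6d, with a largest group mean of 3.07 CPM, Sema4a with 3.504 and Sema4f with 3.57. Just outside were Robo2 with 2.604, Sema4g with 2.56 and Slit1 with 2.15.

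Guidance ligands sit on cell surfaces or are secreted, and they steer axons and migrating cells by attraction or repulsion. Ephrin-A proteins are tethered by a lipid anchor and ephrin-B proteins cross the membrane, so Eph signalling needs cell contact and can run into both cells. Secreted class 3 semaphorins act mostly through neuropilins paired with A-type plexins, and membrane-bound semaphorins bind plexins directly. Netrins attract through Dcc and neogenin and repel through Unc5 receptors, and Slits repel through Robo receptors. The same proteins set boundaries between cell populations and shape vessels in the early embryo.

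E14, a mouse embryonic stem cell line, was grown without feeder cells on gelatin in N2B27 medium, and polyadenylated RNA was read from its 3′ ends (digital gene expression). The groups are cells kept in 2iL (the GSK3 inhibitor CHIR99021, the MEK inhibitor PD0325901 and the cytokine LIF), cells 24, 48, 96 or 120 h after 2iL was taken away, and cells withdrawn for 48 or 96 h that then had 2iL again for 24 h (48 h + 2iL and 96 h + 2iL). These times are read from the sample titles. The treatment protocol of the deposit lists collection times that differ from the titles and goes to 96 h without 120 h. Each group has 4 libraries, numbered by experiment 1 to 4 in the labels, so an experiment contributes 1 library to each of the 7 groups. All groups share the line and the medium, no cells were sorted, and the labels do not say how the 4 experiments differ, so p-values measure the spread between these samples. In bulk RNA, fewer cells of a type and less RNA per cell cannot be told apart.

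Gene counts per library ran from 1554830 to 2828694. Levels below are CPM after scaling of library sizes (TMM), given per library in the order of experiments 1, 2, 3 and 4, or as mean ± SD (n = 4). Folds are log2 fold changes ± standard error from edgeR's quasi-likelihood test on the counts of all 28 libraries, and a gene rose or fell where its Benjamini-Hochberg adjusted p over 11080 tested genes was under 0.05. Of the 49 members 42 were tested. Ntn4, Robo3, Sema4a, Sema4f, Sema6d, Slit3 and Unc5c had too few counts, and their levels are given as values only. A 3′ count is not set per transcript length here, so levels are compared between groups for 1 gene and not between genes.

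The markers of naive stem cells (6 genes) summed to 1599 to 1861 CPM in 2iL, 163 to 285 at 48 h, 47.7 to 62.3 at 120 h, 929.7 to 1186 in 48 h + 2iL and 62.8 to 387 in 96 h + 2iL. The 7 neural progenitor markers summed to 13.5 to 24.04 CPM in 2iL, 82.9 to 295 at 96 h, 229 to 646 at 120 h and 164 to 809.8 in 96 h + 2iL. Libraries of experiment 3 stood apart from the others late in withdrawal: at 96 h Sox1, a neural progenitor factor, was at 135 CPM there and at 22.9, 23.9 and 47.5 in experiments 1, 2 and 4. In 96 h + 2iL the lowest naive sum, 62.8 CPM, was that of experiment 3. The 8 neuron markers summed to 249 to 328 CPM in 2iL and 275 to 443 at 120 h. Of them, Tubb3 (113 CPM) and Stmn2 (162) were high already in 2iL. Dcx stayed at a group mean of 2.79 CPM or less and Neurog2 at 1.82 or less. Map2 went from 2.64 ± 1.15 CPM in 2iL to 34.4 ± 6.17 at 120 h, Elavl4 from 1.31 to 15.5 and Rbfox3 from 0 to 15.1. Elavl3 went from 2.32 CPM in 2iL to 42.5 at 96 h and 24.4 at 120 h. Endothelial markers summed to at most 20.4 CPM in any library, with Sox18 at 0 counts in all 28. The 6 neural crest markers summed to 8.38 to 43.2 CPM per library, with Sox10 at 0 counts in 5 of the 7 groups. In that list Foxd3 was at a mean of 24.7 CPM at 24 h. Pax3 went from 0.33 in 2iL to 15.7 in 96 h + 2iL, and Tfap2a from 19.5 in 2iL to 1.62 at 120 h. The 5 fibroblast markers summed to 156 to 331 CPM in 2iL and 127 to 408 at 120 h. Their part in the results below was not tested.

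**Figure D1:**
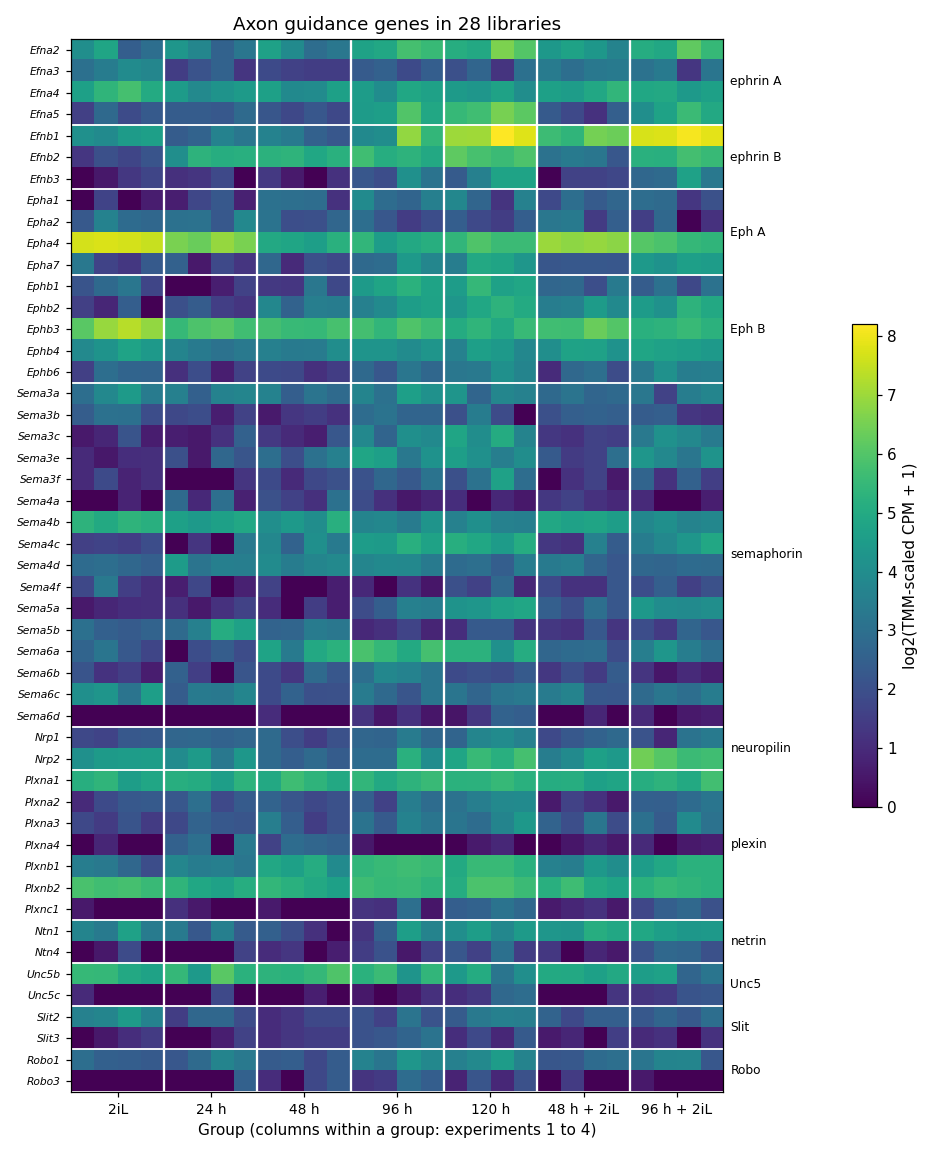
Levels of the 49 genes in 28 libraries as log2(CPM + 1) after TMM scaling (colour), with 1 row per gene, grouped by family, and 1 column per library in the order of experiments 1 to 4 within each of the 7 groups. Epha4 is brightest in 2iL (mean 202 CPM) and Efnb1 at 120 h (194) and in 96 h + 2iL (232), while Sema6d, Robo3 and Unc5c stay near 0 in 2iL.

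The results turn most on 4 genes, an ephrin-B pair and a pair of Eph receptors, whose promoters are shown so that their sequences can be set beside their levels. Each line gives the 250 bases before the RefSeq start (GRCm38.p6), in the gene's 5′ to 3′ direction, with CG dinucleotides in capitals. Efnb1 lies at chrX:99135811-99136060, plus strand, Efnb2 at chr8:8661243-8661492, minus strand, Ephb1 at chr9:102354694-102354943, minus strand and Epha4 at chr1:77515089-77515338, minus strand.
Efnb1: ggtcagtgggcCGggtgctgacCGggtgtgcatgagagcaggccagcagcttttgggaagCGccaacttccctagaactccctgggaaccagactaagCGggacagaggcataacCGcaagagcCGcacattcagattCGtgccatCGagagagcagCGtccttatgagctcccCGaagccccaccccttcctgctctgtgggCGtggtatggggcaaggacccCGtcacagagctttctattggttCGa
Efnb2: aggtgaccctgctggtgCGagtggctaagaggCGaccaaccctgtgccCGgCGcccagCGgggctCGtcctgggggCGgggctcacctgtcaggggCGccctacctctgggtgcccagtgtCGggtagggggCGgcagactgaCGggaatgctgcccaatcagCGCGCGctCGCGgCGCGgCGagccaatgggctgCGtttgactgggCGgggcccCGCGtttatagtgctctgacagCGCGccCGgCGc
Ephb1: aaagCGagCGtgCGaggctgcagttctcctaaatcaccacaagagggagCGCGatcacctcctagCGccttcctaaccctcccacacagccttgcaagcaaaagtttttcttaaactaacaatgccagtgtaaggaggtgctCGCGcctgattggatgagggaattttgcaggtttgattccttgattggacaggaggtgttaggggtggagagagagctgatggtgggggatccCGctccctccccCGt
Epha4: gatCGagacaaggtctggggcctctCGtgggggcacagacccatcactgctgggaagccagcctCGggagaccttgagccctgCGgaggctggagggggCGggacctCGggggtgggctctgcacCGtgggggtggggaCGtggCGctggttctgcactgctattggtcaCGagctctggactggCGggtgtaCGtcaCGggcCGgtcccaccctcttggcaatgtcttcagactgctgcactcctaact
These 4 stretches hold 13, 27, 10 and 14 CG dinucleotides in that order. RefSeq windows of 300 bases, 50 of them after the start, were found for 42 of the 49 genes, 55 windows in all. Their median CG number was 22, beside 21 in the 11155 windows of tested genes and 7 in all 32851 windows. In all, 4 motifs were searched on both strands: the TCF/LEF site CTTTGAT, the octamer ATGCAAAT, the STAT site TTCNNNGAA and the E-box CANNTG. The TCF/LEF site was in 1.82% of member windows (Nrp2) and in 2.45% of tested genes' windows, the STAT site in 3.64% (Efna3 and Sema3e) and 6.49%, and the E-box in 45.5% and 63.0%. The octamer was in no member window and in 1.31% of tested genes' windows. None of the windows of Efnb1, Efnb2, Ephb1 or Epha4 held the first 3 motifs, which says only that these letters are not in them.

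The comparisons with 2iL ask what withdrawal of the inhibitors and LIF changed with time. They share the same 2iL libraries. At 24 h Efnb2 had risen, with Sema5b, Sema4d and the receptor Plxna4, while Epha4, Ephb1, Ephb3, Ephb4, Efna3, Efna4, Plxnb2 and Slit2 had fallen. These are 4 rises and 8 falls among 42 genes, where 7.68% of all tested genes rose and 8.29% fell, and 30 were not called. The median log2 fold change was 0.09 for members and 0.01 for all genes. At 48 h 9 had risen and 12 had fallen (all genes 14.6% and 13.2%), with a median of -0.18 beside 0.02.

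From 96 h most called members were higher than in 2iL. At 96 h 21 members had risen, all 3 ephrin-B genes, Ephb1, Ephb2 and 8 semaphorins among them, and 8 had fallen, with Epha4, Ephb3 and Slit2 among these. The share of all tested genes that rose was 21.9%, that of genes that fell 19.2%, and the medians were 1.06 for members and 0.02 for all genes. At 120 h 23 had risen and 7 had fallen, beside 24.6% and 22.6% of all genes, and the medians were 1.38 and 0.01. The threshold that chose the members bears on the counts and medians against 2iL. In 2iL 14 of the 42 were under 3 CPM, so they entered through a group in which they were higher. They are Efnb2, Efnb3, Epha1, Ephb2, Plxna2, Plxna3, Plxna4, Plxnc1, Sema3c, Sema3e, Sema3f, Sema4c, Sema5a and Sema6b. Of these, 2 are among the rises at 24 h, 6 at 48 h, 12 at 96 h and 12 at 120 h, and 0 among the falls. Their folds and p-values against 2iL, here and below, are therefore a description. Of the 28 members at or above 3 CPM in 2iL, 2 had risen and 8 had fallen at 24 h, and 3 and 12 at 48 h. At 96 h 9 of the 28 had risen and 8 had fallen, and at 120 h 11 had risen and 7 had fallen. Between 48 and 96 h, a step that shares its libraries with both comparisons above, 17 members rose and 3 fell (all genes 11.5% and 9.93%; medians 0.96 and 0.02). The threshold bears on this step too. Among the 17, Efna5, Efnb3, Epha7, Ephb6, Ntn1, Plxnc1, Sema3b, Sema3c and Sema5a were under 3 CPM at 48 h and did not enter through that group. The count of 17 rests in part on 1 library: without experiment 3 at 96 h, 9 rose and 2 fell (all genes 7.48% and 6.62%).

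The return of 2iL was compared with the libraries at the time of return, with 2iL and, after 96 h, with the time-matched 120 h libraries. After 48 h, Efnb1, Epha4, Ntn1, Nrp2, Sema5a, Efna3 and Ephb4 rose and Efnb2, Sema6a, Sema5b, Plxna4 and Plxnb1 fell against 48 h, 7 and 5 of 42 (all genes 7.24% and 7.67%; medians 0.28 and -0.00). The threshold bears on this comparison too. Efna3, Ntn1 and Sema5a were under 3 CPM at 48 h, and Plxna4 and Sema5b in 48 h + 2iL, and did not enter through those groups. Against 2iL itself, 6 of the 42 were higher and 4 lower in these cells (all genes 6.14% and 5.49%; medians 0.08 and 0.01). Of the 14 tested members under 3 CPM in 2iL, 4 were higher and 0 lower, and of the 28 others 2 were higher and 4 lower. The calls of Ephb4 and Plxnb1 against 48 h rest on single libraries: without experiment 2 or 3 of either group Ephb4 stood at 0.79 to 0.84 (adjusted p = 0.0547 to 0.0679), and without experiment 1 or 2 of either group, 3 at 48 h or 4 in 48 h + 2iL Plxnb1 stood at -0.67 to -0.86 (adjusted p = 0.0591 to 0.145). Against 2iL the fall of Sema6c was lost without experiment 1, 2 or 4 of 2iL or 3 or 4 of 48 h + 2iL (-0.94 to -1.18), and the rise of Plxnb1 without experiment 3 or 4 of either group (0.79 to 0.98). The 48 h + 2iL cells were also cultured 24 h longer than the 48 h cells, and a group of that age without 2iL was not analysed here.

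After 96 h, Efnb1, Nrp2, Sema5a and Epha4 rose and Ephb1, Sema6a, Sema6b, Sema4d and Unc5b fell against 96 h, 4 and 5 of 42 (all genes 4.02% and 5.23%; medians 0.03 and 0.00). Of these, Sema6b was under 3 CPM in 96 h + 2iL and did not enter through that group. Against the 120 h libraries, of the same total time, 0 rose and 3 fell, namely Ephb1, Sema6a and Efna5 (all genes 1.28% and 1.34%; medians -0.33 and 0.01). Beside the 0 rises with edgeR, DESeq2 and limma-voom also called 0, and 1 member (Ephb4) had a rise with an unadjusted p under 0.05 in edgeR. Against 2iL 18 members were higher and 7 lower (all genes 21.4% and 19.5%; medians 0.91 and 0.01). The threshold bears on this count and median: of the 14 tested members under 3 CPM in 2iL, 10 were higher and 0 lower. Of the 28 at or above 3 CPM in 2iL, 8 were higher and 7 lower. Several of these calls rest on single libraries. Against 96 h, Sema4d was not called without any 1 of the 8 libraries (-0.96 to -1.14), Sema5a without experiment 1 or 2 at 96 h or any 1 of the 4 in 96 h + 2iL (0.93 to 1.24), Unc5b without experiment 1, 2 or 4 at 96 h or 3 or 4 in 96 h + 2iL (-0.91 to -1.17), and Epha4 without experiment 2 at 96 h (0.57). Without that library 2 members rose and 3 fell (all genes 2.36% and 3.45%). Against 120 h, Ephb1 was the 1 member called without experiment 1 or 4 in 96 h + 2iL or 2 or 4 at 120 h. Sema6a was also lost without experiment 3 in 96 h + 2iL or 1 at 120 h, and Efna5 without experiment 2 in 96 h + 2iL or 3 at 120 h (-1.21 to -1.36 and -0.89 to -1.20 over all such libraries). The difference between the responses after 96 h and after 48 h passed the test in 3 members, 1 more positive (Efnb2) and 2 more negative (Ephb1 and Epha4) after 96 h (all genes 0.451% and 0.469%; medians -0.34 and -0.02).

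Leaving experiment 3 out of every group, chosen after its libraries were seen to stand apart, leaves 3 libraries a group and 41 members tested. The members were chosen by the same threshold, so its limit holds for these counts too. Then 2 rose and 6 fell (all genes 6.06% and 6.62%) at 24 h, 8 rose and 7 fell (all genes 12.0% and 11.2%) at 48 h, 15 rose and 8 fell (all genes 18.2% and 16.3%) at 96 h and 20 rose and 5 fell (all genes 21.3% and 19.5%) at 120 h against 2iL, and 12 rose and 2 fell (all genes 7.66% and 7.07%) from 48 to 96 h. With 2iL returned, 7 rose and 5 fell (all genes 5.79% and 6.01%) against 48 h, 5 rose and 4 fell (all genes 4.81% and 5.29%) against 96 h and 0 rose and 3 fell (all genes 1.84% and 1.96%) against 120 h. Against 2iL, 3 rose and 3 fell (all genes 3.78% and 4.20%) in 48 h + 2iL and 17 rose and 5 fell (all genes 17.3% and 16.1%) in 96 h + 2iL, and of the differences in response those of Ephb1 and Efnb2 remained past the threshold (0.414% of all genes were more positive after 96 h and 0.216% more negative).

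**Figure D2:**
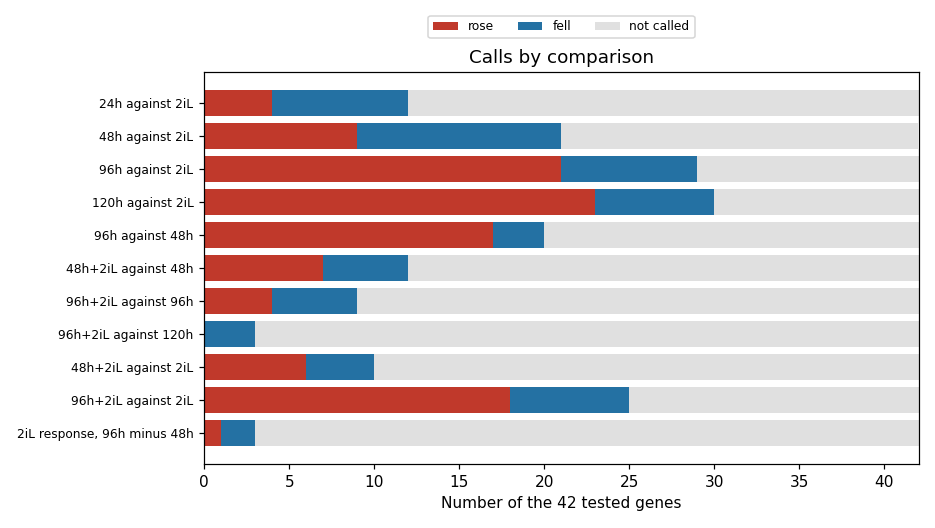
Number of the 42 tested genes (x axis) that rose, fell or were not called in each of 11 comparisons (y axis), by edgeR's quasi-likelihood test at an adjusted p under 0.05. Rises grow from 4 at 24 h to 23 at 120 h against 2iL, where those of all tested genes grow from 7.68% to 24.6%. Of the 23, 12 are members under 3 CPM in 2iL. The smallest counts are those of 96 h + 2iL against 120 h (3 falls) and of the difference in response (3). Shares of all genes are smallest there too (1.28% higher and 1.34% lower, and 0.451% and 0.469%).

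Among the ligands, all 3 ephrin-B genes had risen against 2iL by 96 h. Efnb1 (GENCODE M21, GRCm38, chrX:99136130-99148991), an X-linked membrane ephrin that binds EphB receptors, was at 16.4, 14.2, 21.8 and 23.9 CPM in 2iL, 4.25, 5.18, 11.3 and 8.29 at 24 h, 11.4, 9.38, 4.88 and 3.68 at 48 h, 13.8, 15.4, 116 and 42.6 at 96 h and 128, 129, 294 and 223 at 120 h. It was at 48.02, 40.4, 88.1 and 80.99 CPM in 48 h + 2iL and 207, 218, 270.1 and 232 in 96 h + 2iL. All libraries at 24 and 48 h lay below all 2iL libraries, those at 120 h far above them, and at 96 h experiments 3 and 4 lay above the 2iL range and experiments 1 and 2 did not. Against 2iL the rise passed the test at 120 h (log2 fold change 3.35 ± 0.42, adjusted p = 8.10e-08) and at 96 h (log2 fold change 1.30 ± 0.43, adjusted p = 0.0155), where the groups overlapped. With 2iL returned, Efnb1 was higher than at the time of return without overlap, after 48 h (log2 fold change 3.09 ± 0.50, adjusted p = 3.87e-05) and after 96 h (log2 fold change 2.30 ± 0.39, adjusted p = 1.46e-04). Against 120 h, 96 h + 2iL gave a log2 fold change of 0.26 ± 0.36 (adjusted p = 0.842), which did not pass.

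Efnb2 (chr8:8617434-8661242), a membrane ephrin known as a mark of arteries and as a ligand of EphB4, had risen by 24 h. It was at 1.45, 3.005, 2.25 and 3.41 CPM in 2iL, 15.8, 38.6, 33.4 and 35.2 at 24 h, 37.9, 39.5, 28.7 and 36.2 at 48 h, 50.9, 33.5, 38.4 and 30.01 at 96 h and 70.9, 55.6, 47.7 and 58.9 at 120 h. With 2iL again it was at 7.58, 9.25, 8.31 and 3.72 CPM after 48 h and 36.1, 35.5, 53.5 and 45.3 after 96 h. All withdrawal libraries lay above all 2iL libraries, and the 48 h + 2iL libraries lay between the 2iL and the 48 h ranges. The rise at 24 h (log2 fold change 3.60 ± 0.33, adjusted p = 2.21e-09) had the smallest adjusted p of the 4 rises at that time. With 2iL returned after 48 h, Efnb2 was lower than at 48 h (log2 fold change -2.29 ± 0.27, adjusted p = 2.12e-07). After 96 h the change was 0.16 ± 0.23, which did not pass (adjusted p = 0.743). The difference between these responses was 2.44 ± 0.36 (adjusted p = 4.57e-04).

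Efnb3, the ephrin-B that forms a barrier at the neural midline, was at 1.05 ± 1.03 CPM in 2iL, 7.69 ± 6.29 at 96 h, 16.9 ± 11.2 at 120 h and 11.3 ± 9.08 in 96 h + 2iL, where experiment 3 held 24.8 and the other libraries 5.70 to 8.69. Its rises against 2iL were 2.84 ± 0.79 at 96 h, 3.96 ± 0.76 at 120 h (adjusted p = 6.18e-05) and 3.39 ± 0.78 in 96 h + 2iL. All 3 ephrin-B genes were above 2iL at 96 h, at 120 h and in 96 h + 2iL, though Efnb2 and Efnb3 entered only through groups higher than 2iL.

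The lipid-anchored ephrin-A genes split into a pair that rose and a pair that fell. Efna5 (chr17:62604184-62881317), a ligand that patterns retinal axon targets in the midbrain, was at 1.93 to 6.01 CPM in 2iL, 2.45 to 3.66 at 48 h, 21.6, 23.04, 61.9 and 29.6 at 96 h, 44.02, 50.2, 90.5 and 70.1 at 120 h and 15.7, 25.6, 47.2 and 29.8 in 96 h + 2iL. Libraries at 96 h and later without 2iL lay above all earlier ones, with experiment 3 highest each time. Its rise at 120 h was 4.11 ± 0.39 (adjusted p = 2.94e-10), and its fall in 96 h + 2iL against 120 h was -1.11 ± 0.31 (adjusted p = 0.04603), with overlap. Efna2 rose from 13.5 ± 10.2 CPM in 2iL to 55.5 ± 30.5 at 120 h (log2 fold change 2.03 ± 0.44, adjusted p = 2.49e-04). Its 2iL libraries were uneven, at 15.5, 27.1, 4.51 and 6.81.

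Efna3 and Efna4 went the other way, early. Efna3 was at 7.25, 9.87, 14.7 and 12.5 CPM in 2iL, 1.82, 3.299, 5.04 and 1.38 at 24 h, 2.59, 1.98, 1.83 and 1.84 at 48 h and 9.61, 6.73, 8.73 and 9.31 in 48 h + 2iL. Its libraries at 24 and 48 h all lay below those in 2iL, and those of 48 h + 2iL all above 48 h. It fell by 2.39 on the log2 scale at 48 h (adjusted p = 3.62e-04) and rose with 2iL after 48 h (log2 fold change 2.02 ± 0.50, adjusted p = 0.00496). Efna4 fell at 24, 48, 96 and 120 h, from 37.7 ± 13.1 CPM to 18.6 ± 3.83 at 24 h (log2 fold change -1.03 ± 0.27, adjusted p = 0.00649) and 20.2 ± 4.39 at 120 h. Genes on the other strand share exon bases with both (Gm15998 and 4731419I09Rik), and the strand of counting is not given in the sources used here, so their reads cannot be told apart.

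**Figure D3:**
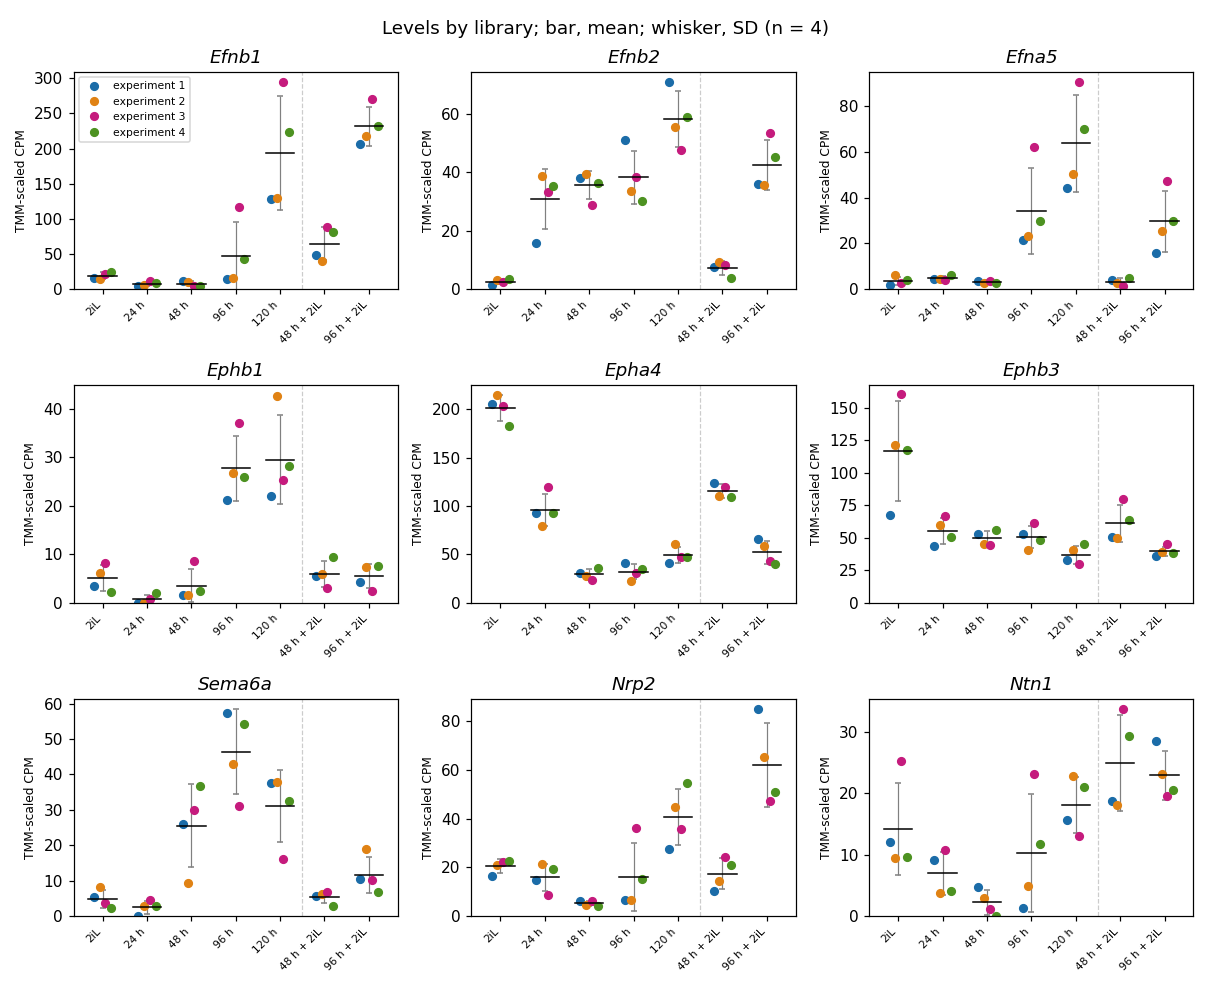
TMM-scaled CPM (y axis, from 0) of 9 genes in each library, coloured by experiment, over the 7 groups (x axis), with the mean as a bar and the SD as a whisker (n = 4). A dashed line parts the groups with 2iL returned. Efnb2 drops to 7.22 CPM on average in 48 h + 2iL and stays at 42.6 in 96 h + 2iL, while Ephb1 goes from 27.7 at 96 h to 5.39 in 96 h + 2iL.

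Of the Eph receptors, Epha4 and Ephb3 were the ones that withdrawal lowered at every time. Epha4 (chr1:77367185-77515088), a receptor that binds both ephrin classes, was at 206, 215, 204 and 183 CPM in 2iL, 92.98, 78.7, 119 and 92.6 at 24 h, 30.1, 27.1, 23.2 and 36.2 at 48 h, 41.3, 22.2, 30.1 and 34.5 at 96 h and 41.03, 60.6, 46.8 and 47.3 at 120 h. With 2iL returned it was at 124, 111, 119.7 and 109 CPM after 48 h and 65.5, 58.6, 43.3 and 40.4 after 96 h. The 2iL libraries lay above all others, and those of 48 h + 2iL above every library of 48 h, 96 h, 120 h and 96 h + 2iL. Its fall at 48 h was -2.79 ± 0.18 (adjusted p = 2.64e-13). Against the time of return it was higher by 1.99 ± 0.18 in 48 h + 2iL (adjusted p = 1.28e-09) and by 0.71 ± 0.18 in 96 h + 2iL (adjusted p = 0.00898). These changes differed by -1.28 ± 0.25 (adjusted p = 0.00749), which became -1.12 (adjusted p = 0.0640) without experiment 3. Against 120 h (48.95 ± 8.28 CPM), 96 h + 2iL (51.9 ± 12.1 CPM) was not called.

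Ephb3 (chr16:21204755-21223305), an EphB receptor of intestinal crypts and commissural axons, was at 67.6, 121, 161 and 118 CPM in 2iL, 52.9, 44.9, 44.6 and 55.8 at 48 h, 32.5, 40.2, 29.7 and 45.1 at 120 h, 50.5, 50.04, 79.8 and 63.8 in 48 h + 2iL and 36.1, 38.8, 44.8 and 37.9 in 96 h + 2iL. Its 2iL range overlapped with that of 48 h + 2iL and with no withdrawal group. It was lower than in 2iL in all 6 other groups, by -1.08 ± 0.20 at 24 h, -1.67 ± 0.20 at 120 h and -0.94 ± 0.19 in 48 h + 2iL, and its responses to 2iL did not pass (adjusted p = 0.365 after 48 h and 0.309 after 96 h). Ephb4, a receptor of Efnb2 known from veins, dipped from 19.4 ± 5.21 CPM in 2iL to 9.53 ± 1.92 at 24 h (log2 fold change -1.02 ± 0.27, adjusted p = 0.00839) and was at 17.1 ± 5.99 at 120 h. Zan shares exon bases with Ephb4 on the other strand.

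Ephb1 (chr9:101922128-102354693), the EphB receptor that turns retinal axons at the optic chiasm, was low early and high late. It was at 3.38, 6.01, 8.27 and 2.27 CPM in 2iL, 0, 0, 0.63 and 2.07 at 24 h, 1.55, 1.48, 8.55 and 2.45 at 48 h, 21.1, 26.7, 37.1 and 25.96 at 96 h and 22.01, 42.7, 25.2 and 28.1 at 120 h. With 2iL returned it was at 5.56, 5.89, 2.91 and 9.31 after 48 h and 4.27, 7.42, 2.43 and 7.45 after 96 h. The 8 libraries of 96 and 120 h were all above 20 CPM and the 20 others all below 10. Its rise against 2iL was 2.41 ± 0.43 at 96 h and 2.50 ± 0.43 at 120 h, and with 2iL it fell against 96 h (log2 fold change -2.35 ± 0.43, adjusted p = 4.56e-04) and against 120 h (log2 fold change -2.44 ± 0.43, adjusted p = 9.53e-04). After 48 h the response was 0.79 ± 0.53, which did not pass (adjusted p = 0.367), and the difference was -3.14 ± 0.68 (adjusted p = 0.0178). That difference had an adjusted p of 0.0506 without experiment 1 at 48 h and 0.0587 without experiment 4 in 48 h + 2iL. Gm26846, on the other strand, shares exon bases with Ephb1.

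Ephb2, a receptor that acts with Ephb1 in axon guidance, rose from 48 h on: 1.82 ± 1.96 CPM in 2iL, 9.52 ± 3.35 at 48 h, 18.4 ± 6.88 at 96 h and 29.5 ± 8.13 at 120 h. It was at 14.2 ± 5.24 CPM in 48 h + 2iL and 26.9 ± 9.64 in 96 h + 2iL, above 2iL in both (2.80 ± 0.48 and 3.71 ± 0.47; adjusted p = 1.61e-04 and 1.13e-07). Neither return of 2iL passed the test for Ephb2, with 0.58 ± 0.40 against 48 h and -0.14 ± 0.35 against 120 h. Epha7, which marks parts of the forebrain, rose to 21.4 ± 8.899 CPM at 120 h from 4.08 ± 3.25 in 2iL (log2 fold change 2.41 ± 0.47, adjusted p = 7.76e-05). Ephb6, a receptor without kinase activity, rose to 11.4 ± 3.54 from 4.79 ± 2.07. Epha1 rose to 9.12 ± 4.09 CPM at 96 h from 6 counts in the 4 libraries of 2iL, and Epha2 fell in 96 h + 2iL against 2iL (log2 fold change -1.54 ± 0.62, adjusted p = 0.0449). Zyx shares exon bases with Epha1 on the other strand.

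Semaphorins were the largest family, with 13 of 16 members tested. Against 2iL, 2 rose and 0 fell at 24 h (all genes 7.68% and 8.29%), 4 rose and 3 fell at 48 h (14.6% and 13.2%), 8 rose and 3 fell at 96 h (21.9% and 19.2%), and 6 rose and 2 fell at 120 h (24.6% and 22.6%). Among the rises at 96 and 120 h, Sema3c, Sema3e, Sema3f, Sema4c and Sema5a were under 3 CPM in 2iL and entered through higher groups. The same holds for Sema6b at 96 h and for Sema3e and Sema4c at 48 h, so these counts are a description. Sema3a, the secreted repellent that acts through Nrp1, was not called in any of the 11 comparisons and had group means of 6.38 to 14.9 CPM. Sema3e, a secreted ligand of Plexin-D1, was at 0.966, 0.429, 1.13 and 1.14 CPM in 2iL, 6.74, 2.96, 7.33 and 11.04 at 48 h, 27.5, 23.9, 8.72 and 17.03 at 96 h and 23.5, 16.4, 10.4 and 15.2 at 120 h, all libraries from 48 h on without 2iL lying above those in 2iL. Its rise was 4.32 ± 0.56 at 96 h (adjusted p = 1.58e-07). Sema3c, which acts through both neuropilins, was at 0.483, 0.859, 3.38 and 0.568 CPM in 2iL, 13.3, 5.25, 16.1 and 13.8 at 96 h and 27.2, 15.4, 32.4 and 11.6 at 120 h. These ranges did not overlap with 2iL, and the rise at 120 h was 3.87 ± 0.54 (adjusted p = 4.07e-07).

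Sema5a (chr15:32244810-32696341), a transmembrane semaphorin with thrombospondin repeats, came up late. It was at 0.483, 0.859, 1.13 and 1.14 CPM in 2iL, 1.04, 0, 1.83 and 0.613 at 48 h, 2.75, 4.45, 10.9 and 10.1 at 96 h and 17.5, 18.9, 24.8 and 28.1 at 120 h, and at 4.55, 2.94, 7.07 and 3.72 in 48 h + 2iL and 19.9, 14.8, 14.1 and 15.5 in 96 h + 2iL. The libraries of 120 h were all above those of 96 h, and 48 h + 2iL all above 48 h. Its rise at 120 h was 4.54 ± 0.49 (adjusted p = 2.96e-09), a description, since Sema5a entered only through groups higher than 2iL. In 48 h + 2iL it was higher than at 48 h (log2 fold change 2.37 ± 0.58, adjusted p = 0.00437), a description too, since Sema5a was under 3 CPM at 48 h. Its sister gene Sema5b peaked at 24 h instead, at 6.08, 10.8, 32.8 and 24.9 CPM beside 7.25, 4.72, 4.13 and 5.11 in 2iL. That rise was 1.80 ± 0.46 (adjusted p = 0.00647) and 1.37 (adjusted p = 0.0602) without experiment 3 at 24 h, and Sema5b then fell below 2iL at 96 h (-1.996 ± 0.58).

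The class 4 and class 6 semaphorins, which are anchored in the membrane, took several courses. Sema6a (chr18:47235598-47368870), a ligand of plexins A2 and A4, was at 5.31, 8.16, 3.76 and 2.27 CPM in 2iL, 25.9, 9.38, 29.9 and 36.8 at 48 h, 57.3, 42.9, 30.96 and 54.3 at 96 h and 37.7, 37.8, 16.2 and 32.6 at 120 h. With 2iL returned it was at 5.56, 6.31, 6.65 and 2.79 after 48 h and 10.4, 18.98, 10.2 and 6.83 after 96 h. Its 48 h and 96 h libraries lay above 2iL and above the groups given 2iL from those times. It rose at 96 h (log2 fold change 3.21 ± 0.41, adjusted p = 1.41e-07) and fell with 2iL after 48 h (-2.22 ± 0.42) and after 96 h (-1.96 ± 0.37). Against 120 h its fall was -1.39 ± 0.38 (adjusted p = 0.0362), with overlap.

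Sema6b had its highest mean at 96 h, at 6.88, 12.9, 11.3 and 8.11 CPM beside 3.38, 1.29, 1.88 and 0.568 in 2iL, 2.61, 2.98, 2.702 and 4.02 at 120 h and 1.42, 0.412, 0.973 and 0.621 in 96 h + 2iL. In 96 h + 2iL it was lower than at 96 h without overlap (log2 fold change -3.43 ± 0.62, adjusted p = 3.79e-04), and it was not called against 120 h. Sema4c, a ligand of plexin B2, rose from 2.199 ± 0.442 CPM in 2iL to 10.7 ± 4.74 at 48 h and 29.2 ± 5.66 at 120 h (log2 fold change 3.72 ± 0.58, adjusted p = 2.60e-06). D430040D24Rik shares exon bases with it on the other strand. Sema4d, the ligand of plexin B1, rose at 24, 48 and 96 h, to 12.7 ± 6.21, 12.5 ± 2.002 and 12.1 ± 1.95 CPM from 5.83 ± 0.996, and was at 6.91 ± 2.21 at 120 h. Its rise at 24 h was 1.10 ± 0.34 (adjusted p = 0.0232), and it was 0.71 (adjusted p = 0.183) without experiment 1 at 24 h. Its adjusted p was 0.0561 without experiment 3 of 2iL and 0.0696 without experiment 4.

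Sema4b and Sema6c were lower without 2iL. Sema4b was at 38.6, 30.9, 39.8 and 35.2 CPM in 2iL, 11.9, 12.9, 9.59 and 17.8 at 96 h, 11.2, 15.9, 11.3 and 10.7 at 120 h and 12.8, 16.1, 11.7 and 13.03 in 96 h + 2iL. The 3 later groups did not overlap with 2iL, and the fall at 120 h was -1.56 ± 0.24 (adjusted p = 1.86e-06). Sema6c fell to 3.41 ± 1.04 CPM at 48 h from 16.4 ± 6.43 (log2 fold change -2.22 ± 0.42, adjusted p = 1.40e-04). The secreted Sema3b fell at 48 h, to 1.26 ± 0.556 CPM from 5.41 ± 2.18, and was at 6.15 ± 1.16 at 96 h. Sema3f, which acts through Nrp2, was at 2.98, 7.45, 24.8 and 6.698 CPM at 120 h and 0.966, 2.58, 0.751 and 1.14 in 2iL, a rise of 2.88 ± 0.68 in which experiment 3 was highest.

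Among the receptors of semaphorins, Nrp2 fell at 48 h and rose with each return of 2iL, and it had also risen at 120 h without 2iL. Nrp2 (chr1:62703285-62818695), the co-receptor of Sema3f and of vascular growth factor C, was at 16.4, 21.04, 22.2 and 22.7 CPM in 2iL, 6.22, 4.44, 6.104 and 4.29 at 48 h, 6.42, 6.47, 36.2 and 15.01 at 96 h and 27.6, 44.7, 35.6 and 54.5 at 120 h. It was at 10.1, 14.3, 24.1 and 20.9 in 48 h + 2iL and 84.97, 65.2, 47.2 and 50.9 in 96 h + 2iL. The 48 h libraries were below all of 2iL and of 48 h + 2iL, and the 96 h + 2iL libraries above all of 96 h. Against 2iL it fell at 48 h (log2 fold change -1.96 ± 0.43, adjusted p = 7.72e-04) and rose at 120 h (log2 fold change 0.97 ± 0.35, adjusted p = 0.0208). With 2iL returned it was higher than at the time of return after 48 h (1.72 ± 0.44) and after 96 h (1.96 ± 0.35). Against 120 h, 96 h + 2iL was not called. The rise from 48 to 96 h, 1.59 ± 0.44, was 0.82 (adjusted p = 0.168) without experiment 3 at 96 h. Nrp1 was called at 120 h against 2iL, at 10.8 ± 3.95 CPM beside 3.07 ± 0.926 (log2 fold change 1.79 ± 0.48, adjusted p = 0.00234). Mir1903 shares exon bases with it on the same strand.

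Of the 7 plexins, all tested, 3 rose at 96 h and 4 at 120 h against 2iL and 0 fell, beside 21.9% and 24.6% of all genes that rose and 19.2% and 22.6% that fell. Among these rises Plxna3, Plxnc1 and, at 120 h, Plxna2 were under 3 CPM in 2iL and entered through higher groups. Plxnb1 (chr9:109095389-109119917), the receptor of Sema4d, was at 10.2, 9.02, 5.64 and 2.84 CPM in 2iL, 29.6, 24.2, 32.96 and 14.1 at 48 h, 41.3, 44.9, 49.3 and 46.6 at 96 h, 30.6, 45.2, 45.03 and 36.2 at 120 h and 22.3, 29.3, 36.5 and 36.6 in 96 h + 2iL. All of the libraries at 48 h and later without 2iL were above those in 2iL, and its rise at 96 h was 2.69 ± 0.28 (adjusted p = 2.95e-09). Gm7628 shares exon bases with Plxnb1 on the other strand. Plxna3 rose from 2.304 ± 0.791 CPM to 11.6 ± 5.86 at 120 h (2.28 ± 0.50), and Plxna2 to 11.4 ± 3.12 from 2.82 ± 1.38 (1.99 ± 0.46). Plxnb2, the receptor of Sema4c, fell at 24 and 48 h, to 32.1 ± 6.74 CPM at 24 h from 51.7 ± 4.73, and was at 49.4 ± 12.1 at 120 h. Plxna1, a partner of neuropilins, was not called in any comparison, with group means of 29.5 to 38.8 CPM, and Gm26811 shares exon bases with it on the other strand.

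A pair of plexins had few counts in 2iL. Plxna4, the partner of neuropilins in Sema3a signalling, had 2 counts in the 4 libraries of 2iL, 36 at 24 h, 34 at 48 h, 1 at 96 h and 4 in 48 h + 2iL. The ratio of 24 h to 2iL was 23.4 (exact 95% counting interval 6.01 to 200.2), that of 48 h to 2iL 20.8 (5.32 to 178), and that of 48 h to 96 h 44.4 (7.44 to 1803). At 24 h experiment 3 had no count of it. Plxnc1, the receptor of Sema7a, had 1 count in 2iL, 23 at 96 h, 52 at 120 h and 33 in 96 h + 2iL. The ratio of 120 h to 2iL was 50.1 (8.60 to 2015). Its rise at 96 h, with 1.38, 1.21, 6.98 and 0.406 CPM, had an adjusted p of 0.0566 without experiment 3 at 96 h. These intervals cover counting error only, and both genes reached the threshold of 3 CPM only through groups in which they were high, so the ratios are a description. Genes on the other strand (Plxna4os3) or on the same strand (Gm48718) share exon bases with Plxna4 and Plxnc1.

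Ntn1 (chr11:68209364-68400823), the founding netrin, dipped at 48 h. It was at 12.1, 9.45, 25.2 and 9.65 CPM in 2iL, 9.12, 3.77, 10.7 and 4.15 at 24 h, 4.67, 2.96, 1.22 and 0 at 48 h, 1.38, 4.85, 23.1 and 11.8 at 96 h and 15.7, 22.9, 13.1 and 20.99 at 120 h. It was at 18.7, 18.1, 33.7 and 29.3 in 48 h + 2iL and 28.5, 23.1, 19.5 and 20.5 in 96 h + 2iL. All 48 h libraries were under 5 CPM and all 48 h + 2iL libraries above 18. Ntn1 fell at 48 h (log2 fold change -2.59 ± 0.60, adjusted p = 0.00114) and rose with 2iL after 48 h (log2 fold change 3.40 ± 0.58, adjusted p = 7.19e-05). After 96 h the change was 1.15 ± 0.46 and did not pass (adjusted p = 0.117). Its rise from 48 to 96 h, 2.12 ± 0.61, was 1.37 (adjusted p = 0.134) without experiment 3 at 96 h. Ntn4 was not tested and reached 3.68 ± 2.51 CPM at 120 h and 4.39 ± 1.37 in 96 h + 2iL, from 0.765 ± 1.26 in 2iL.

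Unc5b, a repellent netrin receptor, was at 43.96, 43.4, 30.1 and 25.6 CPM in 2iL, 20.5, 31.8, 8.11 and 15.6 at 120 h and 22.8, 25.2, 5.35 and 8.07 in 96 h + 2iL. Experiments 3 and 4 were the low ones in both later groups, and the ranges of 2iL and 120 h overlapped. Its falls were -0.92 ± 0.37 at 120 h (adjusted p = 0.0406) and -1.19 ± 0.38 in 96 h + 2iL. Unc5c had 2 counts in 2iL and 34 at 120 h and was not tested. It entered through 120 h, and Gm15688 shares exon bases with it on the other strand.

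Slit2 (chr5:47983138-48307733), the secreted ligand of Robo receptors, was highest in 2iL, at 11.1, 12.4, 21.4 and 11.4 CPM. It was at 1.82, 5.66, 5.67 and 2.77 at 24 h, 1.04, 1.48, 2.44 and 2.45 at 48 h, 3.21, 2.02, 7.85 and 3.24 at 96 h, 4.103, 8.94, 10.8 and 10.3 at 120 h, 5.05, 2.52, 4.57 and 4.66 in 48 h + 2iL and 3.798, 5.36, 3.89 and 6.83 in 96 h + 2iL. Every library of the 6 other groups lay below the 2iL range. Its falls were -2.92 ± 0.47 at 48 h (adjusted p = 1.41e-05), -1.75 ± 0.41 in 48 h + 2iL and -1.51 ± 0.41 in 96 h + 2iL, and at 120 h the value of -0.74 ± 0.38 did not pass (adjusted p = 0.113). Robo1, its receptor, rose to 12.9 ± 4.46 CPM at 96 h and 14.5 ± 5.17 at 120 h from 4.99 ± 1.22 in 2iL (log2 fold change 1.52 ± 0.38, adjusted p = 0.00124). Robo3, which commissural axons use at the midline, had 0 counts in 2iL and 33 at 96 h, the group through which it reached the threshold of 3 CPM. Slit3 had 7 counts in 2iL and 47 at 96 h. Robo3 and Slit3 were not tested.

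Of the untested semaphorins, Sema4a, which shares exon bases with Mir7011, had 2 counts in 2iL and 24 at 24 h and at 48 h, Sema4f had 33 in 2iL and 5 at 48 h, and Sema6d had 0 in 2iL and 25 at 120 h. Each higher group named here is one through which the gene reached the threshold, so these counts are a description.

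The comparisons after 48 h and after 96 h share no library, so the responses to 2iL can be set side by side. Efnb1, Nrp2, Sema5a and Epha4 rose and Sema6a fell in both. Each comparison also spans 24 h more of culture. Of all members called after 96 h, Ephb1 and Sema6a also fell against the time-matched 120 h libraries, and the rest were not called there. Efnb2, Ntn1, Efna3, Ephb4, Plxna4, Plxnb1 and Sema5b passed the test after 48 h and not after 96 h, and Ephb1, Sema6b, Sema4d and Unc5b after 96 h and not after 48 h. Of these 11, the difference itself passed for Efnb2 and Ephb1. For the others it was not shown, with a difference of -2.24 ± 0.76 for Ntn1 (adjusted p = 0.174) and -3.04 ± 0.87 for Sema6b (adjusted p = 0.0907). In the same libraries the mesendoderm list (6 genes) summed to 0.613 to 5.703 CPM at 48 h and 83.3 to 204 in 48 h + 2iL, and to 8.72 to 17.03 at 96 h and 38.5 to 243 in 96 h + 2iL, where T was at 55.4 ± 55.6 and Cdx2 at 96.01 ± 46.96. Trophoblast markers (4 genes, Cdx2 among them) summed to 5.23 to 20.6 CPM at 96 h and 43.8 to 198 in 96 h + 2iL, with Elf5 at 0 counts in both. Their part in the responses was not tested.

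**Figure D4:**
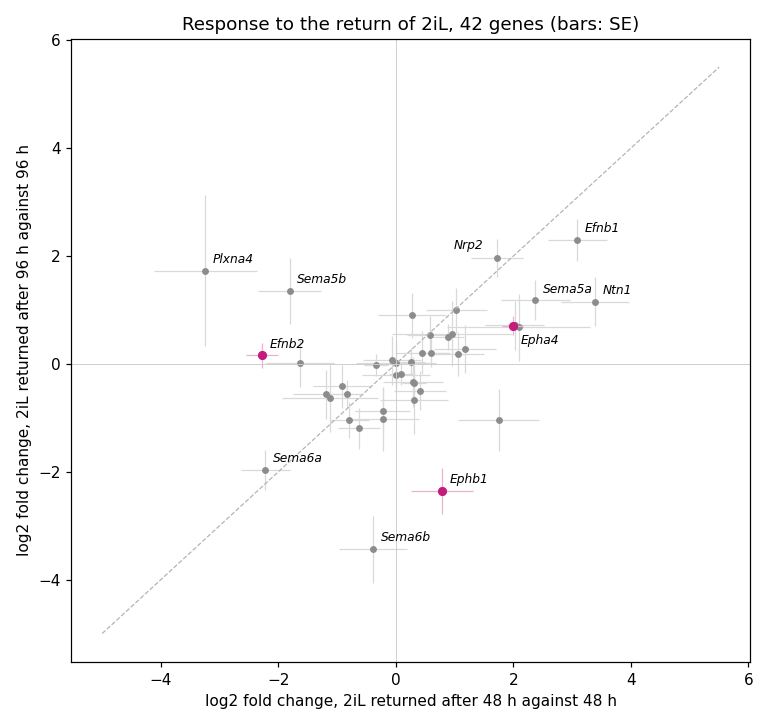
Log2 fold change with 2iL returned after 48 h (x axis) and after 96 h (y axis) for 42 genes, each against the libraries at the time of return. Bars are standard errors, the dashed line marks equal responses, and the 3 coloured genes are those whose responses differed: Efnb2 (-2.29 and 0.16), Ephb1 (0.79 and -2.35) and Epha4 (1.99 and 0.71).

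Other genes of the guidance pathway, from lists of receptors and ligands outside these families, signalling proteins inside the cell and proteases, were read in the same fit. Of 11 tested receptors, ligands and adhesion partners, 7 rose and 1 fell at 120 h against 2iL (all genes 24.6% and 22.6%), 5 rose and 0 fell in 96 h + 2iL against 2iL (21.4% and 19.5%), and 2 rose and 0 fell in 48 h + 2iL against 48 h (7.24% and 7.67%). Earlier against 2iL, 0 rose and 1 fell at 24 h (7.68% and 8.29%), 2 and 3 at 48 h (14.6% and 13.2%) and 3 and 3 at 96 h (21.9% and 19.2%). In 96 h + 2iL against 96 h 2 rose and 2 fell (4.02% and 5.23%). Nrcam, an adhesion partner of neuropilins, rose at 120 h with 189 counts beside 2 in 2iL, a ratio of 90.97 (exact 95% counting interval 24.8 to 757). With so few counts in 2iL, Nrcam was tested only through groups in which it was higher, so its ratio is a description. Flrt1 rose at 120 h by 3.89 ± 0.77 and Draxin, a netrin pathway ligand, by 2.96 ± 0.66. Neo1, the netrin receptor neogenin, fell at 48 h (-1.10 ± 0.25) and 96 h (-0.85 ± 0.24), and Rgma, a neogenin ligand, fell at 48 h (-2.34 ± 0.46) and rose from 48 to 96 h (3.19 ± 0.45).

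Of 44 tested signalling genes, 22 rose and 9 fell at 120 h against 2iL (all genes 24.6% and 22.6%), with a median of 0.51 beside 0.01 for all genes, and 19 rose and 4 fell in 96 h + 2iL against 2iL (21.4% and 19.5%). Earlier, 7 rose and 8 fell at 24 h (7.68% and 8.29%), 11 and 9 at 48 h (14.6% and 13.2%) and 19 and 7 at 96 h (21.9% and 19.2%). With 2iL returned, 5 rose and 6 fell against 48 h (7.24% and 7.67%), and 1 and 5 against 96 h (4.02% and 5.23%). Collapsin response mediators, which carry semaphorin signals to the cytoskeleton, rose at 120 h: Crmp1 by 3.98 ± 0.38 and Dpysl2 by 3.04 ± 0.29, while Dpysl4 had 176 counts beside 2 in 2iL, a ratio of 84.7 (23.1 to 705). Dpysl4 was likewise tested only through groups in which it was higher, so its ratio is a description. Crmp1 had already risen at 24 h (log2 fold change 3.38 ± 0.40, adjusted p = 3.13e-07), and it fell with 2iL after 48 h (-1.40 ± 0.29) and after 96 h (-1.46 ± 0.28). Srgap1, a GTPase regulator of Slit-Robo signalling, fell at 24 h, with 2 counts beside 136 in 2iL, and 2iL was 52.4 times as high (14.2 to 437). It was not tested through its 24 h counts, so this ratio is a description too. Fyn, a kinase downstream of ephrins and semaphorins, rose at 120 h (2.73 ± 0.28). In 96 h + 2iL against 120 h Pak3 fell (-1.69 ± 0.43) and the other 43 were not called. Of 3 proteases, Adam10, which cuts ephrins, rose in 96 h + 2iL against 96 h (log2 fold change 1.14 ± 0.24, adjusted p = 0.00211). Against 120 h 0 of the 3 rose and 0 fell.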

How the data were processed

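RNA of 28 libraries of E14 cells was sequenced by the authors as 3′ digital gene expression. Per the submitters' processing notes HTSeq, bcl2fastq and STAR 2.6.0a were used, on mm10, and their roles are not given. Raw counts of 31053 genes were deposited for every library. The deposit calls them unique, and whether that means position or molecule is not stated. Reads at more than 1 place, 52.3% to 60.1% of those listed, were not counted, and 5 rows per file that name no gene were left out of library sizes and tests. The deposited CPM table of the authors equalled CPM from the counts in 28 of 28 columns within 1e-06, and no libraries were identical. It served to choose members.

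The members, lists and motifs were chosen with earlier results of these data known. Genes passing filterByExpr (at least 10 counts, 15 in total) were fitted with edgeR 4.0.16 in R 4.3.3 (TMM, quasi-likelihood, 1 mean per group, two-sided tests, Benjamini-Hochberg over 11080 genes). The standard error is the absolute fold change divided by the square root of F and is approximate. Named in each comparison are the 8 called members with the largest change and at least 10 CPM in the higher group, called members with 3 counts or fewer in the lower group, and others by their roles. Alternatives were library totals, DESeq2 1.42.0, limma-voom 3.58.1, other filters, single libraries left out, only the groups compared, and the experiment as a block. The steps were tested on simulated data.

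The experiment number in the sample titles was read as pairing libraries across groups. Libraries of 1 experiment deviated from their group means together weakly (84 pairs, correlation -0.042 to 0.419, median 0.068, beside a median of -0.027 in 252 pairs of different experiments), and 24 of 28 libraries were closest to their own experiment. Depth limits low genes: counts of 0 to 3 over a group are given as counts, with intervals for counting error only.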

Additional observations from a re-analysis of the deposited data

Results flagged for a closer look

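Over 137 pairs of a member and a group with a mean of at least 10 CPM, the gap between 1 library and the other 3 was checked against the group's range, and 6 stood apart. Chance gives about 1 in 20 such groups. In 48 h + 2iL Unc5b was at 24.5 CPM in experiment 3 and 29.8 to 30.8 in the others. Sema4b at 120 h was at 15.9 CPM in experiment 2 beside 10.7 to 11.3. In 2iL, experiment 3 held 25.2 CPM of Ntn1 (others 9.45 to 12.1) and 21.4 CPM of Slit2 (others 11.1 to 12.4). Ephb4 at 96 h was at 14.4 CPM in experiment 3 beside 17.8 to 18.2, and Efnb3 in 96 h + 2iL was at 24.8 beside 5.70 to 8.69. Of the 6, 5 are libraries of experiment 3, the same experiment that stood apart in neural progenitor markers at 96 h.

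The response to 2iL differed between the returns after 96 h and after 48 h in 3 members by a test of the difference (edgeR, adjusted over 11080 genes, 4 libraries in each of 4 groups). The difference was 2.44 ± 0.36 for Efnb2 (adjusted p = 4.57e-04), -3.14 ± 0.68 for Ephb1 (adjusted p = 0.0178) and -1.28 ± 0.25 for Epha4 (adjusted p = 0.00749). Efnb2 fell in 4 of 4 experiments after 48 h, and Ephb1 fell in 4 of 4 after 96 h.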

How the results depend on the processing

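No called direction reversed under any alternative. Of 84 changes of named members, 64 kept their call under every alternative, and the others missed the threshold in 94 single settings against 1242 that kept it. Counts of called members moved by more than 1.5 times as follows. With at least 30 counts in 4 libraries, which leaves 25 members tested, 7 were called at 24 h and 18 at 96 h against 2iL. Of all 8336 genes tested in that setting, 755 rose and 808 fell at 24 h and 1890 and 1800 at 96 h. With only the groups compared in the fit, 1 was called in 96 h + 2iL against 120 h and 5 in 48 h + 2iL against 2iL. Among all genes, 39 rose and 76 fell of 9673 tested in the former and 568 and 707 of 9399 in the latter. Without experiment 3 in any group, an alternative chosen after seeing the data, 6 were called in 48 h + 2iL against 2iL (all genes 3.78% higher and 4.20% lower). DESeq2 and the fit with no low-count filter each called 5 differences in response. Over all genes, DESeq2 called 80 more positive and 88 more negative of 11080, and the unfiltered fit 129 and 192 of 21039. Leaving out 1 library gave 11 to 20 calls from 48 to 96 h, the lowest without experiment 3 at 96 h (all genes 7.48% and 6.62%). It gave 5 to 10 in 96 h + 2iL against 96 h (all genes 2.36% and 3.45% without experiment 2 at 96 h), and 1 to 2 in 96 h + 2iL against 120 h. Shares of all genes without the other single libraries are not given here. The cause was not tested, beyond the fewer genes or libraries that some settings leave. With the experiment as a replicate block, 13 members were called in 48 h + 2iL against 2iL in place of 10, and at 120 h the count stayed at 30. All genes went from 680 higher and 608 lower to 860 and 756 in the former, and from 2730 and 2509 to 2837 and 2647 at 120 h. The block lost no call of a named member and moved no count by more than 1.5 times. Library totals in place of TMM shifted the median of all genes at 120 h by 0.12 (log2) and the share of rises among all called genes from 53.7% to 64.8% for 48 to 96 h and from 49.0% to 38.6% for the difference in response. Members then split 19 to 2 in place of 17 to 3 from 48 to 96 h (all genes 1571 to 852 in place of 1277 to 1100). The split of the difference stayed 1 to 2 (all genes 34 to 54 in place of 50 to 52). Depth limits members near 3 CPM, 7 of which were not tested.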

Other observations

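Summed over a family, counts of 3′ ends followed the genes with the most counts. The 3 ephrin-B genes summed to 22.6 ± 5.89 CPM in 2iL (SD, n = 4), 43.7 ± 8.002 at 48 h, 269 ± 84.1 at 120 h, 73.2 ± 23.1 in 48 h + 2iL and 286 ± 44.6 in 96 h + 2iL, and Efnb1 was the largest part at 120 h and in both groups given 2iL again. The 4 EphA receptors went from 213 ± 15.7 CPM in 2iL to 42.6 ± 6.82 at 48 h, 81.4 ± 12.5 at 120 h, 130.3 ± 6.42 in 48 h + 2iL and 79.6 ± 13.9 in 96 h + 2iL, and Epha4 was the largest part in each. The 16 semaphorins together were at 98.9 ± 6.95 CPM in 2iL, 186 ± 9.51 at 120 h and 122 ± 7.003 in 96 h + 2iL, and the 96 h + 2iL libraries (115 to 132) all lay between the ranges of 2iL and 120 h. No test was made on these sums. A gene's part in them is its share of counts and is not a comparison of levels between genes.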
